A study of Mus musculus with 4 samples.

Results

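The genes described here make, import, store and export cholesterol. They were chosen by name, with earlier results of these data known. They were 31 genes of sterol synthesis, its control by SREBP2, uptake, esterification and efflux. Every probe set annotated with exactly 1 of these symbols was taken. That gave 60 probe sets of 29 genes, out of 45101 probe sets and 18193 singly annotated genes in all. Acat2 and Soat2 had no such probe set and were skipped. The arrays held total RNA from mature liver of C57BL/6J mice. One group of 2 arrays was taken 48 h after partial hepatectomy, in which part of the liver is cut away and the rest regrows, and the other group of 2 arrays 48 h after a sham operation. The design text calls the arrays of a group biological duplicates. The sources used here do not give age, sex or the number of animals behind an array, so a p-value reflects how far these arrays scatter.

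Cholesterol is built from acetyl-CoA through mevalonate, farnesyl diphosphate, squalene and lanosterol, mostly on the endoplasmic reticulum. SREBP2, the product of Srebf2, is a membrane-bound transcription factor that SCAP carries to the Golgi for cleavage when sterols are low, and the INSIG proteins hold it back when sterols are high. In liver, cholesterol also arrives with lipoproteins, and it leaves as bile acids, in nascent HDL and, through ABCG5 and ABCG8, directly into bile.

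The signal of a probe set is a brightness in arbitrary units, scaled by the authors to a common mean on each array. Fold changes are given as hepatectomy minus sham on the log2(signal + 8.57) scale, with the standard error (SE). Each gene was represented by its tested probe set with the highest mean. A gene was called changed at a Benjamini-Hochberg adjusted p of 0.05 over all 27022 probe sets tested with limma. With 2 arrays in each group an exact permutation test of a single gene cannot go below p = 0.333, so no such test was made. The number of arrays limits every statement here: the 95% interval of a sterol gene reached 0.415 on the log2 scale to either side of its value (median of 29 genes).

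Before the sterol genes, the arrays themselves need a description. Of 8 hepatocyte markers, 7 were measured, with summed signals of 91172 and 85675 after hepatectomy and 100513 and 87390 after sham, and none was called. Hepatectomy replicate 1 stood apart. The summed signal of 12 of 13 listed adrenal markers was 21270 on that array and 259 on hepatectomy replicate 2, against 288 and 317 on the sham arrays. Cyp11a1 and Cyp11b1, enzymes that define steroid-making adrenal cells, had 2322 and 2673 on hepatectomy replicate 1, and their highest signals on the other 3 arrays were 13.7 and 12.9, under the 20.4 of the brightest bacterial control probe set. Nr5a1 alone of the measured adrenal markers was not brightest on hepatectomy replicate 1. It had 18.2 and 20.6 after hepatectomy and 36.8 and 31.7 after sham. The fat list, with 4 of 7 genes measured, summed to 2287 and 277 after hepatectomy and to 150 and 66.7 after sham. Adrenal cortex uses and stores cholesterol, so for the sterol genes that hepatectomy replicate 1 moved most, values are also given without it. The part of the adrenal and fat RNA in those values was not tested.

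Some markers of other cell types differed on both hepatectomy arrays. The 5 stellate and matrix genes, all measured, summed to 7864 and 5844 after hepatectomy and to 2441 and 3522 after sham, and 3 of them, all collagen genes, were called higher. Col1a1, for example, had a log2 fold change of 2.64 ± 0.36 (limma, adjusted p = 0.00826). The other genes of this list went in opposite directions and were not called. Des was higher on both hepatectomy arrays (1.06 ± 0.31). Lrat, a stellate cell gene, was lower, with 482 and 919 after hepatectomy and 1010 and 1257 after sham (-0.75 ± 0.30). The rise of the sum therefore describes the collagen genes and not the list as a whole. The 7 macrophage markers summed to 15064 and 14645 after hepatectomy and to 13922 and 14651 after sham, with Marco called higher (3.45 ± 0.32) and Csf1r called lower (-0.70 ± 0.13). Of 3 intestinal markers, which summed to 11142 and 11650 after hepatectomy and to 5824 and 6285 after sham, Fabp2 was called higher (0.98 ± 0.11). Fabp2 gave most of that sum on every array, with 5144 and 5611 already after sham. Lgals4 was not called (0.12 ± 0.19). Vil1 was under the background level on 3 arrays and was not tested. The sum therefore describes Fabp2 and not intestinal tissue. No endothelial or biliary marker was called, at 4 measured genes each. The part of these cell types in the sterol gene values was not tested.

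Of the 29 genes, 1 was called lower after hepatectomy, the efflux half-transporter Abcg8, and 0 were called higher, by limma with Benjamini-Hochberg adjustment. That is 3.45% of them, against 4.67% of all 12560 genes tested (3.57% higher and 1.09% lower). At an unadjusted p of 0.05, 8 of the 29 genes passed (27.6%), against 19.9% of all genes tested. The median log2 fold change of the 29 genes was -0.146, with 18 values below 0, and that of all genes tested was 0.0247. Since the genes were chosen with earlier results known, these shares and medians describe the genes picked and cannot show an excess. Without hepatectomy replicate 1 the 29 genes had a median of -0.0632 and no call at all, and without sham replicate 1 a median of -0.00257 and likewise no call. Without sham replicate 2 the median was -0.271 with no call, and without hepatectomy replicate 2 it was -0.249 with 6 calls, 1 higher and 5 lower. In whole-liver RNA, a smaller share of the cells that express a gene and less of its RNA per cell cannot be told apart. The plot of signals by array shows how close the groups lay for most genes.

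**Figure D1:**
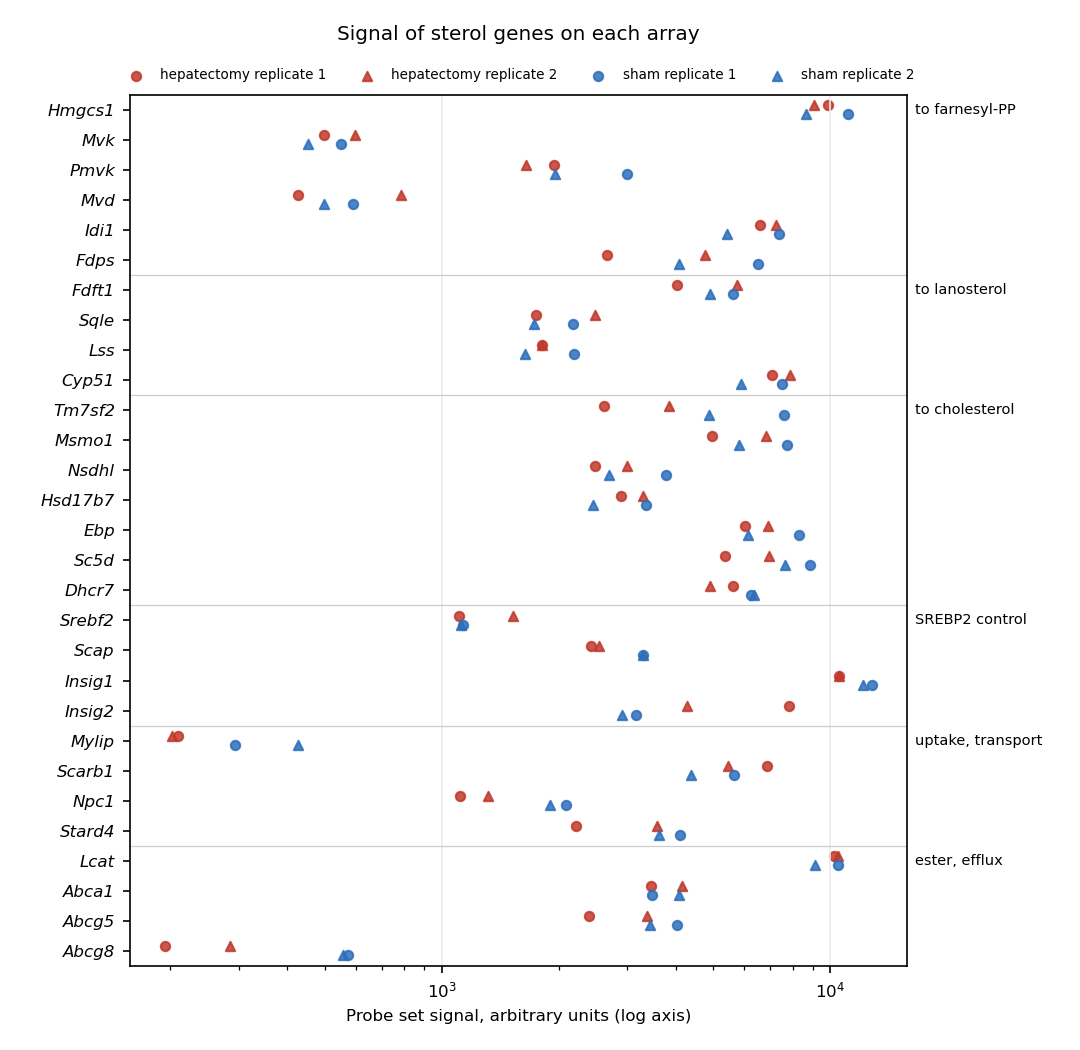
Signal of the probe set that represents each of the 29 sterol genes on each array (log axis, arbitrary units), ordered by role; red marks hepatectomy and blue sham, circles replicate 1 and triangles replicate 2. Red and blue points interleave for 17 genes, lie apart with hepatectomy lower for 11, among them Abcg8 and Npc1, and lie apart with hepatectomy higher for Insig2 alone.

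The genes differed in whether the groups overlapped at all. Both hepatectomy arrays lay below both sham arrays for 11 of the 29 genes (37.9%), against 23.2% of all genes tested. Both lay above for 1 gene, Insig2 (3.45%), against 28.1% of all genes tested. In either direction, 41.4% of the 29 genes and 51.3% of all genes tested had groups that lay apart. These shares, too, describe the genes picked and cannot show an excess. The 11 were Pmvk, Tm7sf2, Sc5d, Dhcr7, Scap, Insig1, Mylip, Npc1, Stard4, Abcg5 and Abcg8. They included 4 of 17 measured synthesis enzymes, and 7 of the 12 genes of control, uptake, transport and efflux. Each gene was placed by its brightest probe set. A dimmer tested probe set of Hmgcs1, of Hsd17b7, of Srebf2 and of Scarb1 also had both hepatectomy arrays above both sham arrays. Some dimmer probe sets of Sc5d and Stard4 overlapped between the groups.

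No enzyme of cholesterol synthesis was called, in either direction. The 17 measured enzymes, each by its probe set with the highest mean, had a median log2 fold change of -0.122. For 15 of them the 95% interval lay wholly between a 2-fold decrease and a 2-fold increase. The exceptions were Fdps and Tm7sf2, whose intervals reached down to -1.21 and -1.50. The highest upper bound among these probe sets was 0.774, that of Mvd. Some dimmer probe sets of the enzymes, also not called, had intervals that reached further. That of 1 Hmgcs1 probe set ran from 0.23 to 2.00, and that of 1 Sc5d probe set from -1.75 to 0.19.

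The first steps lead to farnesyl diphosphate, and 6 of the 7 listed genes were measured. Hmgcs1, the cytosolic HMG-CoA synthase, had signals of 9851 and 9070 after hepatectomy and 11085 and 8663 after sham, and the log2 fold change was -0.05 ± 0.14 (SE; adjusted p = 0.900). The hepatectomy arrays lay between the sham arrays. Idi1, the isomerase that makes dimethylallyl diphosphate, had 6579 and 7229 after hepatectomy and 7370 and 5431 after sham (0.12 ± 0.16), again with both hepatectomy values between the sham values. Mvk, which phosphorylates mevalonate, and Mvd, which decarboxylates its diphosphate, also overlapped between the groups. Mvk had 497 and 600 after hepatectomy and 551 and 454 after sham (0.13 ± 0.22). Mvd had 427 and 783 after hepatectomy and 590 and 497 after sham (0.09 ± 0.30), so its hepatectomy arrays were the lowest and the highest of the 4, and the value was 0.53 without hepatectomy replicate 1. Pmvk, phosphomevalonate kinase, had 1950 and 1651 after hepatectomy and 2993 and 1960 after sham (-0.43 ± 0.22; adjusted p = 0.378). Its groups did not overlap, though hepatectomy replicate 1 and sham replicate 2 were almost level. The value was -0.13 without sham replicate 1 and -0.74 without sham replicate 2. Fdps, farnesyl diphosphate synthase, had 2662 and 4755 after hepatectomy and 6500 and 4087 after sham (-0.53 ± 0.29; adjusted p = 0.423). The low array was hepatectomy replicate 1: without it the log2 fold change was -0.12, and without hepatectomy replicate 2 it was -0.95. Without sham replicate 1 it was -0.20.

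SREBP2 acts through short promoter elements next to sites for the general factors NF-Y and Sp1, and the promoter of Hmgcs1 is a textbook case. RefSeq promoter windows of 24 members, 31 windows in all, were searched for the sterol regulatory element TCACNCCAC on either strand. No window was searched for Fdft1, Fdps, Sqle, Npc1, Scarb1, Soat2 and Stard4, and no looser form of the element was searched for. Of the windows searched, only that of Hmgcs1 held this exact element and is shown. The window runs from 250 bases before to 50 after the annotated start, at chr13:119690101-119690400 of build GRCm38.p6, plus strand, and the capitals mark the element.
Hmgcs1: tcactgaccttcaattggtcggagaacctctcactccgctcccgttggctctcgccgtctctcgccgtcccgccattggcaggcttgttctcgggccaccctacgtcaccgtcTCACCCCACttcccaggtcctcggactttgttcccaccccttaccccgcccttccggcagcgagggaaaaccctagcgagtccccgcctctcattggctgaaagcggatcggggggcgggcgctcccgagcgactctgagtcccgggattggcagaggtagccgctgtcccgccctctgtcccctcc
The element was held by 1.24% of the 32851 windows searched. CCAAT, the core of an NF-Y site, was found in 21 of the 31 member windows (67.7%), against 37.4% of all windows, and 4 times in the window of Hmgcs1. GGGCGG, the core of an Sp1 site, was found in 23 (74.2%), against 35.7%, and the E-box CACGTG in 7 (22.6%), against 7.15%. Some windows overlap, such as those of Scap, so the same letters can count more than once. By gene, CCAAT was found in 21 of the 24 members, against 41.1% of all genes. GGGCGG was found in 20, against 38.2%, and CACGTG in 6, against 8.09%. None of these motifs overlapped the sterol element in Hmgcs1. Both strands were searched, and a match describes letters in a window, not a bound site.

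From squalene to demethylated lanosterol, 4 of 4 genes were measured, and all 4 overlapped between the groups. Fdft1, squalene synthase, had 4028 and 5758 after hepatectomy and 5603 and 4906 after sham (-0.12 ± 0.18, and 0.14 without hepatectomy replicate 1). Sqle, squalene epoxidase, had 1750 and 2477 after hepatectomy and 2170 and 1726 after sham (0.10 ± 0.21, and 0.35 without hepatectomy replicate 1). Sqle is often described as a second control point of the pathway, and its 95% interval here ran from -0.37 to 0.58. Lss, which closes the sterol ring, had 1807 and 1811 after hepatectomy and 2185 and 1639 after sham (-0.06 ± 0.18). By this probe set the hepatectomy arrays of Lss were nearly equal and lay inside the sham range. A second probe set was alike (0.03 ± 0.18). The third and dimmest had 222 and 625 after hepatectomy and 552 and 512 after sham (-0.50 ± 0.42), and was not called. Cyp51, the demethylase that acts on lanosterol, had 7062 and 7855 after hepatectomy and 7495 and 5904 after sham (0.16 ± 0.14; adjusted p = 0.647).

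Of the 7 later enzymes, all measured, 6 had values below 0 and their median was -0.224, but none was called. Tm7sf2, a sterol C14-reductase, differed most, with 2615 and 3847 after hepatectomy and 7576 and 4867 after sham. Both hepatectomy arrays were below both sham arrays, and the log2 fold change was -0.94 ± 0.24 (SE; adjusted p = 0.0904). It was -0.66 without hepatectomy replicate 1 and -1.21 without hepatectomy replicate 2. Without sham replicate 1 it was -0.62, and without sham replicate 2 it was -1.25. Sc5d, which introduces a double bond into the sterol ring, had 5352 and 6964 after hepatectomy and 8873 and 7658 after sham (-0.43 ± 0.15; adjusted p = 0.204). Without hepatectomy replicate 1 the value of Sc5d was -0.24. Dhcr7, which makes cholesterol from 7-dehydrocholesterol, had 5607 and 4892 after hepatectomy and 6235 and 6356 after sham (-0.27 ± 0.12; adjusted p = 0.338). Sc5d, by its brightest probe set, and Dhcr7 also had groups that did not overlap. The dimmer probe sets of Sc5d overlapped between the groups.

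By their brightest probe sets the remaining 4 later enzymes overlapped. Msmo1, the C4-methyl oxidase, had 4952 and 6828 after hepatectomy and 7752 and 5825 after sham (-0.21 ± 0.19, and 0.02 without hepatectomy replicate 1). Nsdhl, which removes the C4 carboxyl group, had 2480 and 2993 after hepatectomy and 3765 and 2691 after sham (-0.22 ± 0.19). In both genes sham replicate 1 was the brightest array and hepatectomy replicate 1 the dimmest. Hsd17b7, the 3-ketosteroid reductase of the pathway, had 2896 and 3299 after hepatectomy and 3350 and 2443 after sham (0.11 ± 0.18). Ebp, the sterol isomerase, had 6018 and 6913 after hepatectomy and 8309 and 6130 after sham (-0.15 ± 0.16). The plot of fold changes sets these intervals side by side.

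**Figure D2:**
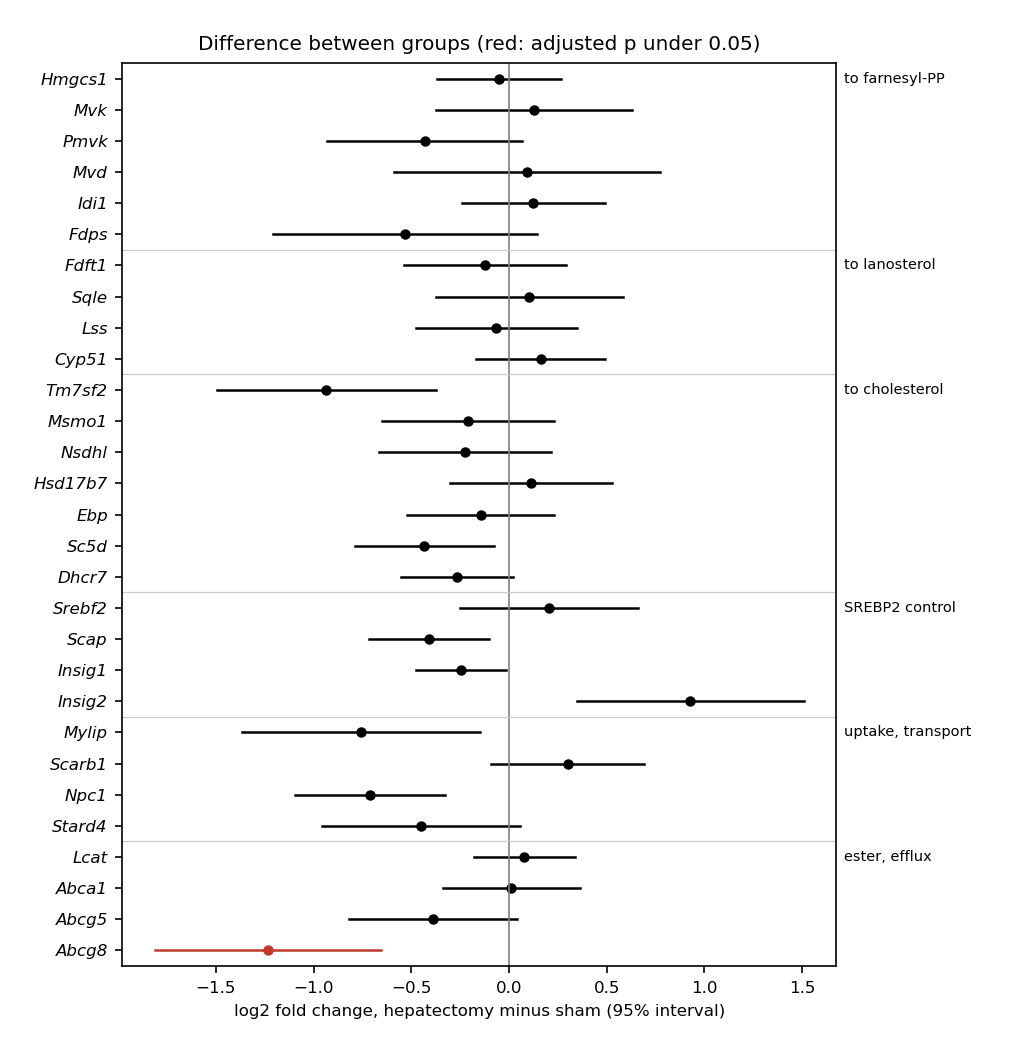
Log2 fold change, hepatectomy minus sham, of each of the 29 sterol genes (points) with its 95% interval from limma (lines, not adjusted for the number of genes), ordered by role. Only Abcg8, in red, had an adjusted p under 0.05; the intervals of 8 genes leave out 0, those of Insig2 above it and of Tm7sf2, Sc5d, Scap, Insig1, Mylip, Npc1 and Abcg8 below it.

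Among the 4 genes of SREBP2 control, the 2 INSIG genes had values of opposite sign. Insig2, whose protein retains SCAP in the endoplasmic reticulum, had 7842 and 4270 after hepatectomy and 3164 and 2913 after sham. Both hepatectomy arrays exceeded both sham arrays, replicate 1 by far the most. The log2 fold change was 0.93 ± 0.25 (SE; adjusted p = 0.102), so by its brightest probe set Insig2 was not called. A second probe set of Insig2 was called higher: it had 6336 and 3409 after hepatectomy and 1962 and 1719 after sham (1.34 ± 0.26; adjusted p = 0.0351). The third had 4610 and 2370 after hepatectomy and 1477 and 1598 after sham (1.10 ± 0.28; adjusted p = 0.0826). The 3 probe sets placed the arrays alike, with hepatectomy replicate 1 highest and hepatectomy replicate 2 next. Without hepatectomy replicate 1, the array with adrenal transcripts, the brightest probe set gave 0.49 (adjusted p = 0.185) and the second 0.89 (adjusted p = 0.0230). Without hepatectomy replicate 2 they gave 1.37 (adjusted p = 0.000646) and 1.78 (adjusted p = 0.000177). Without either sham array the second probe set was not called (adjusted p = 0.119 without replicate 1 and 0.149 without replicate 2).

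RefSeq lists 3 starts for Insig2. In mouse liver the gene is known to use an upstream start, whose transcript falls with insulin and is raised in fasting, besides an ordinary one. Probe sets of the shared part of the transcript do not tell these apart, and the 3 probe sets were not assigned to a start here. The window of the most upstream start is shown because of the signals of Insig2. By the brightest probe set of each gene, Insig2 was the one member with both hepatectomy arrays above both sham arrays. It lies at chr1:121332540-121332839 of build GRCm38.p6, minus strand, and the capitals mark CCAAT on either strand.
Insig2: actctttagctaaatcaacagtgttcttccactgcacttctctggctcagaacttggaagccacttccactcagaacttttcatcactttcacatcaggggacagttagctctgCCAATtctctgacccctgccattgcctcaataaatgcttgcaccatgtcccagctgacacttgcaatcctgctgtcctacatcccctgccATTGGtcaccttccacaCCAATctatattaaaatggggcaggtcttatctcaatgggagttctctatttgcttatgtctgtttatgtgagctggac
This window held 3 CCAAT motifs and neither the Sp1 core, the E-box nor the sterol element, while the other 2 windows of Insig2 held the Sp1 core and no NF-Y core.

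Insig1, the INSIG gene that is itself a target of SREBP2, had 10489 and 10533 after hepatectomy and 12780 and 12161 after sham. Its groups did not overlap and its arrays varied little, and the value was -0.25 ± 0.10 (adjusted p = 0.266). Scap, the escort of SREBP2, had 2423 and 2531 after hepatectomy and 3292 and 3298 after sham (-0.41 ± 0.13; adjusted p = 0.168). Scap had the tightest sham pair of all the genes described here, and both hepatectomy arrays lay below it. Srebf2 had 1109 and 1522 after hepatectomy and 1133 and 1118 after sham (0.21 ± 0.20; adjusted p = 0.682). One hepatectomy array of Srebf2 was level with sham and the other above it, and the value was 0.43 without hepatectomy replicate 1. A second probe set of Srebf2 had 489 and 443 after hepatectomy and 388 and 412 after sham (0.21 ± 0.21; adjusted p = 0.687), where the groups did not overlap.

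Uptake and movement inside the cell were represented by 4 genes, none called. Npc1, which carries cholesterol out of late endosomes and lysosomes, had 1117 and 1314 after hepatectomy and 2087 and 1897 after sham. Both hepatectomy arrays lay clearly below both sham arrays, and the log2 fold change was -0.71 ± 0.17 (SE; adjusted p = 0.0646), just short of the threshold. It stood between -0.60 and -0.83 when 1 array was left out, at -0.60 without hepatectomy replicate 1 and -0.83 without hepatectomy replicate 2. Mylip, a ubiquitin ligase that targets lipoprotein receptors for breakdown and is induced through the sterol sensor LXR, had 210 and 202 after hepatectomy and 294 and 428 after sham (-0.76 ± 0.26; adjusted p = 0.197). Its hepatectomy arrays were nearly equal and its sham arrays were not.

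Stard4, a carrier of cholesterol between membranes, had 2214 and 3582 after hepatectomy and 4099 and 3616 after sham (-0.45 ± 0.22; adjusted p = 0.363). Hepatectomy replicate 2 was nearly level with sham replicate 2, and the groups did not overlap by this probe set. The dimmest probe set of Stard4 overlapped, with 435 and 914 after hepatectomy and 898 and 796 after sham. By the brightest, the log2 fold change was -0.10 without hepatectomy replicate 1 and -0.80 without hepatectomy replicate 2. Scarb1, the HDL receptor SR-BI that takes up cholesteryl ester, had 6874 and 5455 after hepatectomy and 5655 and 4368 after sham (0.30 ± 0.17; adjusted p = 0.436). Its groups overlapped by this probe set. SR-BI is abundant in adrenal cortex as well as in liver, and the value was 0.13 without hepatectomy replicate 1.

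Efflux held the one called gene. Abcg8 had 194 and 285 after hepatectomy and 574 and 557 after sham, so both hepatectomy arrays lay far below the sham pair, which varied little. The log2 fold change was -1.23 ± 0.25 (SE; 95% interval -1.81 to -0.65; adjusted p = 0.0399). Without hepatectomy replicate 1 it was -0.97 (adjusted p = 0.0584), and without sham replicate 1 or 2 it was -1.21 (adjusted p = 0.265) and -1.26 (adjusted p = 0.189), none of them called. It was called without hepatectomy replicate 2 (-1.50; adjusted p = 0.0045). Abcg5 encodes the partner with which ABCG8 forms one transporter. It had 2389 and 3369 after hepatectomy and 4026 and 3435 after sham, which gave -0.39 ± 0.19 on the log2 scale (adjusted p = 0.354). The groups of Abcg5 did not overlap, but hepatectomy replicate 2 was nearly level with sham replicate 2, and the gene was not called. Its value was -0.14 without hepatectomy replicate 1 and -0.64 without hepatectomy replicate 2. The difference between the fold changes of Abcg5 and Abcg8 was not tested.

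The values of Abcg5 and Abcg8 can be read beside their shared upstream sequence. They lie head to head on chromosome 17, and in RefSeq (build GRCm38.p6) the start of Abcg5, on the minus strand at position 84683011, is 110 bases from a start of Abcg8 on the plus strand at 84683121. Their promoter windows overlap by 209 bases. The window of Abcg8, chr17:84682871-84683170 on the plus strand, is shown for that reason, with the stretch from one start to the other in capitals.
Abcg8: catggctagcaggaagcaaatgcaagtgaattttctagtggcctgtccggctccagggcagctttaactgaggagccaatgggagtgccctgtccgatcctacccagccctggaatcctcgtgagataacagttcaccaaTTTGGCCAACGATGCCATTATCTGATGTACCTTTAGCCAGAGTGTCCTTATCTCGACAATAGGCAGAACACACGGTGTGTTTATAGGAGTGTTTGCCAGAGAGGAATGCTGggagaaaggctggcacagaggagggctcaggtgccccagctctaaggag
It held 2 CCAAT motifs outside that stretch or at its edge and no sterol element, Sp1 core or E-box. RefSeq lists a further start of Abcg8, outside this stretch.

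Abca1, which loads cholesterol onto apolipoprotein A-I, had 3456 and 4150 after hepatectomy and 3467 and 4066 after sham. The groups were level, at 0.01 ± 0.15 (SE; 95% interval -0.34 to 0.36). Lcat, the plasma enzyme that esterifies cholesterol on HDL and is made in liver, had 10188 and 10470 after hepatectomy and 10469 and 9140 after sham (0.08 ± 0.11; 95% interval -0.18 to 0.34). Lcat and Abca1 had groups that overlapped.

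Several probe sets of one gene gave a further view of the spread. Of the 60 probe sets 56 were tested and 4, of Fdps, Fdft1 and Hsd17b7, fell under the filter on low signals. Of the 56, 1 was called higher (Insig2) and 1 lower (Abcg8), against 2.51% of all 27022 tested probe sets called higher and 0.877% called lower (3.39% in all). Of 16 genes with several tested probe sets, 11 had all of them on the same side of 0. Probe sets on both sides of 0 belonged to Hmgcs1, Lss, Cyp51, Msmo1 and Abca1. In Hmgcs1, 4 probe sets ran from -0.05 to 0.16. The fifth had 124 and 259 after hepatectomy and 69.5 and 88.5 after sham (1.12 ± 0.38; adjusted p = 0.191). Without hepatectomy replicate 1 the value of this probe set was 1.62. The 3 probe sets of Stard4 lay between -0.50 and -0.42, and the 3 of Scarb1 between 0.04 and 0.32.

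**Figure D3:**
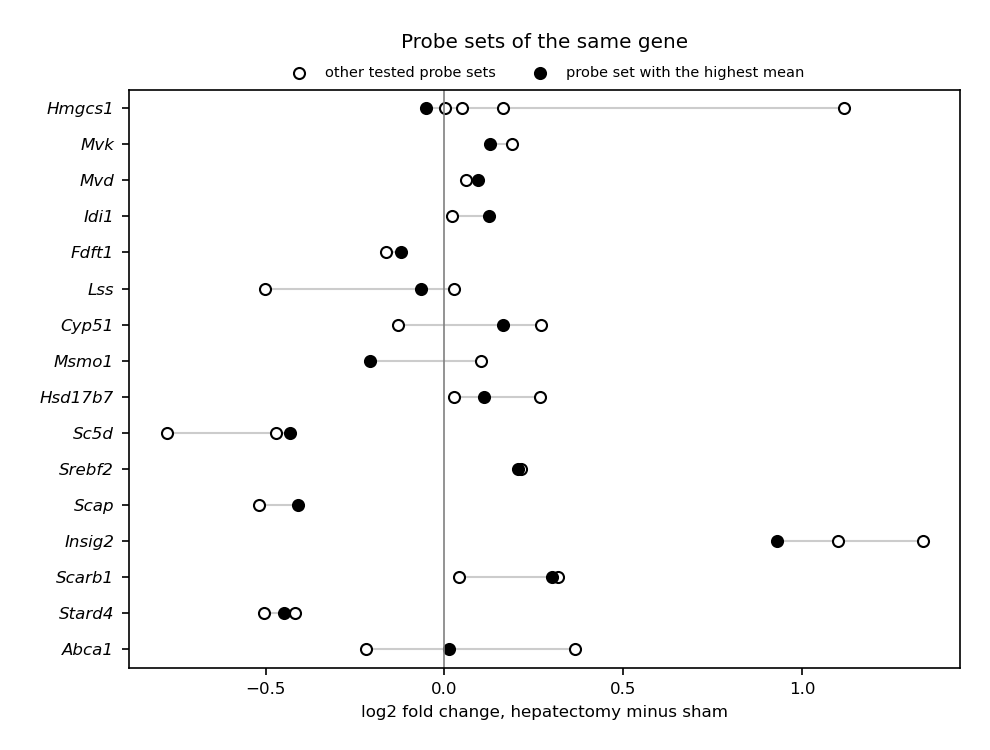
Log2 fold change, hepatectomy minus sham, of every tested probe set of the 16 sterol genes with more than 1; the filled point is the probe set with the highest mean, open points are the others. The 3 probe sets of Insig2 all lie above 0.9, those of Stard4 and Sc5d all lie below 0, and Hmgcs1 has 1 probe set at 1.12 far from its other 4.

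The arrays of one group differed too. Over the 29 genes the median absolute difference was 0.266 between the hepatectomy arrays and 0.275 between the sham arrays, on the log2 scale, and over all genes tested it was 0.240 and 0.206. The median absolute fold change between the group means was 0.224, against 0.248 over all genes tested. Within a group the genes tended to move together. Hepatectomy replicate 2 was brighter than hepatectomy replicate 1 for 23 of the 29 genes (79.3%), against 46.6% of all genes tested. Sham replicate 1 was brighter than sham replicate 2 for 25 of the 29 (86.2%), against 45.9%. This sham difference was not particular to the sterol genes. The 7 hepatocyte markers summed to 100513 on sham replicate 1 and 87390 on sham replicate 2, and all but Ass1 were brighter on sham replicate 1. After hepatectomy their sum was higher on replicate 1 (91172, against 85675), unlike most sterol genes. Both of these orders, of the hepatectomy arrays and of the sham arrays, held for 21 of the 29 sterol genes (72.4%), against 21.4% of all genes tested. They held for 14 of the 17 enzymes. Tm7sf2 had a hepatectomy replicate 1 at 0.680 times replicate 2 and a sham replicate 1 at 1.56 times replicate 2. For Fdps the same ratios were 0.560 and 1.59, and for Msmo1 they were 0.725 and 1.33. With 2 arrays in a group these are descriptions of single arrays, and no test was made of them. Insig2 ran the other way after hepatectomy, with replicate 1 at 1.84 times replicate 2, and Scap and Insig1 hardly differed within either group.

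**Figure D4:**
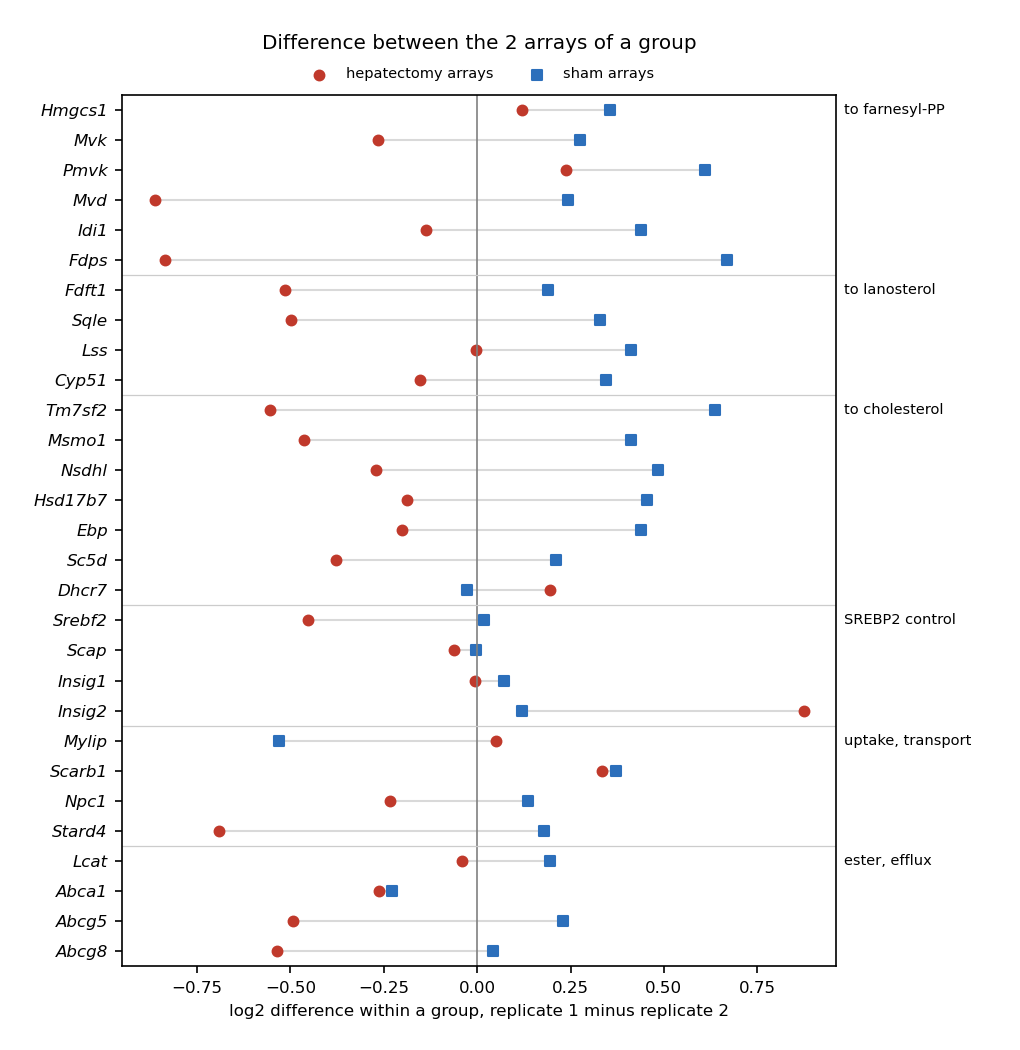
Log2 difference between the arrays of one group, replicate 1 minus replicate 2, for each of the 29 sterol genes, in hepatectomy (red circles) and sham (blue squares), ordered by role. Most red circles lie left of 0 (23 genes) and most blue squares right of it (25 genes); Insig2 has the red circle farthest to the right, at 0.875.

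Sterol supply and use outside these genes was followed in a list of 32 others, of which 24 were tested. Of these, 5 were called lower and 0 higher (20.8% lower, against 1.09% of all genes tested), and the list's median was -0.154. The list was chosen with earlier results of these data known. Its share of calls therefore describes the genes picked and cannot show an excess. The called genes belong to bile acid synthesis and to lipogenesis. Cyp7a1, which starts the classic route from cholesterol to bile acids, had 95.2 and 196 after hepatectomy and 3115 and 1761 after sham (-4.01 ± 0.37; adjusted p = 0.00145). Cyp8b1, the 12-alpha-hydroxylase of that route, had 184 and 125 after hepatectomy and 7122 and 2470 after sham (-4.71 ± 0.44; adjusted p = 0.00146). In both genes every hepatectomy array was far below every sham array.

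Cyp27a1, the sterol 27-hydroxylase, had 4356 and 5351 after hepatectomy and 9696 and 8589 after sham (-0.92 ± 0.14; adjusted p = 0.0123), and was not called without sham replicate 1 (-0.83; adjusted p = 0.0776). Srebf1, which encodes the SREBP of fatty acid synthesis, had 1661 and 2434 after hepatectomy and 4950 and 5747 after sham (-1.40 ± 0.20; adjusted p = 0.00868), and was not called without sham replicate 2 (-1.30; adjusted p = 0.0588). Acss2, an acetyl-CoA synthetase, had 2831 and 2557 after hepatectomy and 6789 and 5879 after sham (-1.23 ± 0.14; adjusted p = 0.00316). With its probe sets averaged Acss2 was not called (-0.65; adjusted p = 0.0769). The difference between the fold changes of Srebf1 and Srebf2 was not tested. Both hepatectomy arrays had less Srebf1 signal than either sham array, while Srebf2 overlapped between the groups by its brightest probe set and was higher on both hepatectomy arrays by the other, called by neither. The remaining genes of the list, none called, ran from -0.67 (Cyp7b1, the oxysterol 7-alpha-hydroxylase) to 0.50 (Abcg1, a sterol exporter), named here as the ends of the range.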

How the data were processed

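Total RNA of liver was labelled with biotin and hybridised to 4 arrays, 2 per group, per the labels. The intensities are linear signals, 1 per probe set and array, deposited by the authors and and GCOS 1.4 is the software that the submitters' processing notes name. The sources used here give neither its settings nor scan dates. After trimming 2% at each end every array had a mean of 500. No column was left unused. The 3' to 5' ratio of beta-actin was 2.40 and 2.02 after hepatectomy and 2.75 and 2.35 after sham.

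Of 45101 probe sets, 64 controls were left out. Platform annotation gave 34945 of the rest a single symbol. The 20th percentile of all signals, 8.57, was added before log2. The 27022 probe sets at or above the 40th percentile of mean log2 value (5.09) were tested. The groups were compared by lmFit and eBayes with a mean-variance trend (limma 3.58.1, R 4.3.3; 2 residual and 6.02 prior degrees of freedom), two-sided, with Benjamini-Hochberg adjustment over all probe sets tested. The code was tested on simulated data. A signal of 20.4, the highest among 27 Bacillus subtilis control probe sets, served as the background level. Promoter windows are from RefSeq, GRCm38.p6, without those on chromosome 18. Of the 31 genes, 24 had a window among those searched.

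All members are named, and from the wider list every called gene up to 8. Members and lists were chosen with earlier results of these data known. Alternatives covered offset, filter, scaling, variance model, choice of probe sets, leaving out each array and a replicate block.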

Additional observations from a re-analysis of the deposited data

How the results depend on the processing

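Counts of calls moved most. The 29 sterol genes held 1 called gene as reported, 0 with no filter on low signals and 0 without the mean-variance trend. They held 2 with the filter at the 60th percentile, 2 with each array centred on its median and 2 with the robust fit, the added gene being Npc1 each time. Leaving out 1 array gave 0 to 6 called genes, with 6 only without hepatectomy replicate 2 and 0 without any of the other 3. Called sterol probe sets, 2 as reported, numbered 0 without the filter, 0 without the trend and 0 to 12 with 1 array left out. The 24 wider sterol genes held 5 calls as reported, 3 without the filter and 2 without the trend. Over all genes tested there were 586 calls as reported, 218 without the filter, 173 without the trend and 234 to 1236 with 1 array left out (234 and 313 without sham replicates 1 and 2). Leaving out a filter adds tests to the adjustment, and leaving out an array leaves 1 in its group, assumed to vary like the other group; the cause of the other shifts was not tested.

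No label says that equal replicate numbers mark a shared animal, batch or day. The deviations of same-numbered arrays from their group means had r = 0.102, a single value, since with 2 arrays in a group the second pair mirrors the first, and it does not settle whether the numbers pair the arrays. With the number as a replicate block, 4 sterol genes, 6 of their probe sets and 1189 of all genes were called. The 4 were Abcg8 (adjusted p = 0.00587), Insig2 (0.00217, with all 3 probe sets called), Tm7sf2 (0.00763) and Npc1 (0.0272).

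Abcg8 was called in 10 of 15 alternatives, with an adjusted p between 0.0045 and 0.265. It was not called without the filter (0.112), without the trend (0.138) and without hepatectomy replicate 1 or either sham array. The median of the 29 genes was below 0 in all 15, between -0.271 and -0.00257. With median centring it was -0.254, and that of all genes -0.0836.

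Of 34 genes named, 19 kept their sign in all alternatives run for them, and 15 changed it in 27 results, none of which was called. With median centring the log2 fold change was -0.01456 for Mvd, -0.00357 for Sqle, -0.02993 for Lcat and -0.09591 for Abca1. Averaging probe sets gave 0.2557 for Hmgcs1. Leaving out probe sets that may match several transcripts gave 0.04772 for Hmgcs1 and 0.1023 for Msmo1. With 1 array left out the log2 fold change ranged from -0.2296 to 0.1256 for Hmgcs1, from -0.01146 to 0.2634 for Mvk, from -0.3376 to 0.5251 for Mvd and from -0.09576 to 0.3441 for Idi1. The range was -0.3794 to 0.135 for Fdft1, -0.1448 to 0.3543 for Sqle, -0.2715 to 0.1419 for Lss and -0.009105 to 0.3348 for Cyp51. It was -0.4397 to 0.02289 for Msmo1, -0.4655 to 0.01763 for Nsdhl, -0.1155 to 0.3381 for Hsd17b7 and -0.3649 to 0.07324 for Ebp. It was -0.02058 to 0.4327 for Srebf2, -0.0195 to 0.1762 for Lcat and -0.1194 to 0.1442 for Abca1. By their brightest probe sets all of these genes had groups that overlap, and with 2 arrays in a group such differences were not detectable here.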
